A study of Mus musculus with 36 samples.

Results

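The receptor gene Trem2 and 9 further genes of disease-associated microglia, namely Tyrobp, Cst7, Itgax, Clec7a, Cd68, Axl, Lyz2, Spp1 and Pld4, were followed by symbol through all tables of the series, as 10 of its 24421 gene symbols. The series measured polyadenylated RNA of mouse hippocampus in 6 groups of 6 libraries, each with 3 females and 3 males. In the aging arm, C57BL/6 mice were 18 months old and had received a nanoligomer (old nanoligomer), were 18 months old and labelled as treatment controls (old), or were 8 months old and likewise controls (young). In the second arm all mice were 4 months old and were APP/PS1 amyloid transgenic mice given nanoligomer (APP/PS1 nanoligomer), APP/PS1 controls (APP/PS1), or non-carrier littermates as controls (littermate). The series title names NF-kB and NLRP3 as what was lowered, and the nanoligomer's dose, duration and sequence, the APP/PS1 line and the littermates' strain were not stated in the labels. Nothing in the labels says whether a library came from 1 animal, so p-values measure the spread between these libraries.

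Microglia are the resident macrophages of the brain. TREM2 is a surface receptor that binds lipids and lipoproteins and signals through the adaptor TYROBP, also called DAP12, to the kinase SYK. Near amyloid deposits and in aged tissue, microglia take up a state in which receptors of uptake, lysosomal proteins and secreted factors are raised, and in mouse models the full state depends on Trem2. Homeostatic markers such as P2ry12 and Tmem119 mark microglia outside that state.

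The promoters of 4 of these genes are shown because Trem2 and Pld4 passed the test with age and Cst7 and Clec7a had the largest age differences among the 10. Each line gives the 250 bases before the start of the gene, 5′ to 3′ on the gene's strand, from RefSeq on GRCm38.p6. Capitals mark GAGGAA, or its reverse complement TTCCTC, the core letters bound by PU.1, the transcription factor that sets up the macrophage lineage.
Trem2 chr17:48346151-48346400 (+ strand): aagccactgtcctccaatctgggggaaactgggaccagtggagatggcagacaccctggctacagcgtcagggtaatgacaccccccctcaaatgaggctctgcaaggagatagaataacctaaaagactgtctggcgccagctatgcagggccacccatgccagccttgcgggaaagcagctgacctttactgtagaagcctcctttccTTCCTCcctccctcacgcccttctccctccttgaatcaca
Pld4 chr12:112760405-112760654 (+ strand): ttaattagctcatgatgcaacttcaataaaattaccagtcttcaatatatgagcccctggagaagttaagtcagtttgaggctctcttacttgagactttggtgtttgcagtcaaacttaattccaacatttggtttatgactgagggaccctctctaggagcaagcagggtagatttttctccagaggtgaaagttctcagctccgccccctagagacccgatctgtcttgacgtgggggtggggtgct
Cst7 chr2:150570165-150570414 (+ strand): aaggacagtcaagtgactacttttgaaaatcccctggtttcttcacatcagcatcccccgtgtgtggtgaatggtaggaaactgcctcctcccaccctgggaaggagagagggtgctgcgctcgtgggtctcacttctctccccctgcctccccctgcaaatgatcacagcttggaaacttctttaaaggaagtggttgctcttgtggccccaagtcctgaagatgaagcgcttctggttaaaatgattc
Clec7a chr6:129472780-129473029 (- strand): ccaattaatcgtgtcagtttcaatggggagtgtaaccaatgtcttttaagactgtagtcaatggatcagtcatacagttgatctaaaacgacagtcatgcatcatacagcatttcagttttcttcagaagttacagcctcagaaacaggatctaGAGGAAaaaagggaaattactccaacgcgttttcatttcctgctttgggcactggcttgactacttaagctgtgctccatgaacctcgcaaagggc
Of the 10 genes, 9 matched an entry of the promoter table, with 11 entries in all. The core was present on either strand in 5 of the 9, namely Trem2, Clec7a, Cd68, Axl and 1 of the 2 Spp1 entries, and in 23.3% of the 32851 promoter windows of the same length. The E-box CACGTG of lysosomal gene promoters was in none of the 9, against 6.02% of all windows, and a match to the NF-kB consensus was likewise in none of the 9, against 7.25% of all windows. These matches are letters in a window and were not measured as binding.

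In GENCODE vM21 on GRCm38, Trem2 lies at chr17:48346401-48354147 on the plus strand, Pld4 at chr12:112760655-112768990 (plus), Cst7 at chr2:150570415-150578944 (plus) and Clec7a at chr6:129461591-129472779 (minus). Itgax lies at chr7:128129547-128150657 (plus), Cd68 at chr11:69664213-69666153 (minus) and Tyrobp at chr7:30413760-30417585 (plus). All are protein-coding genes in that annotation except Clec7a, which it lists as a polymorphic pseudogene. Of the 10, Spp1 alone shares exon bases with another gene, 974 bases with Gm42793 on the same strand, so reads there could belong to either.

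Depth was 27.6 to 46.3 M reads in 35 libraries, and 0.913 M in APP/PS1 nanoligomer female 3, which was left out of every value below. App, which the transgene adds to, had 3906 to 4462 CPM (a gene's reads scaled to a library of 1e6 reads) in APP/PS1 nanoligomer and 2792 to 4327 in APP/PS1 libraries, against 1653 to 1786 in littermates. All 15 homeostatic microglia markers were detected, with summed levels of 407 to 888 CPM over the 35 libraries. APP/PS1 female 3 stood apart from its group for these genes, and the differences and list counts that it moved are given with and without it.

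The 10 genes covered a wide range of levels, and their order per kilobase depends on the annotated lengths. Merged exons count every annotated transcript of a gene, and came to 4946 bases for Trem2 and 667 for Tyrobp. Before that scaling Trem2 averaged 17.9 CPM and Tyrobp 15.9 CPM in old libraries. Per kilobase of merged exons (GENCODE vM21), the mean level in old libraries was highest for Tyrobp at 23.8 CPM per kilobase, followed by Cd68 at 15.9, Axl at 13.4 and Lyz2 at 11.8. Pld4 had 4.72, Spp1 3.98 and Trem2 3.62 on the same scale. The cystatin Cst7 had 1.27, the lectin Clec7a 0.724 and the integrin Itgax 0.448. In young libraries the order was Tyrobp at 16.8, Axl at 12, Cd68 at 11.1, Lyz2 at 4.81, Spp1 at 3.94, Pld4 at 2.98, Trem2 at 2.14, Cst7 at 0.224, Clec7a at 0.0986 and Itgax at 0.0943. The last 3 genes rest on few reads: Cst7 had 305 reads over the 6 old libraries, against 54 over the 6 young ones. A library with 0 reads of a gene allows up to 0.0648 to 0.109 CPM, counting error only, depending on its depth.

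**Figure D1:**
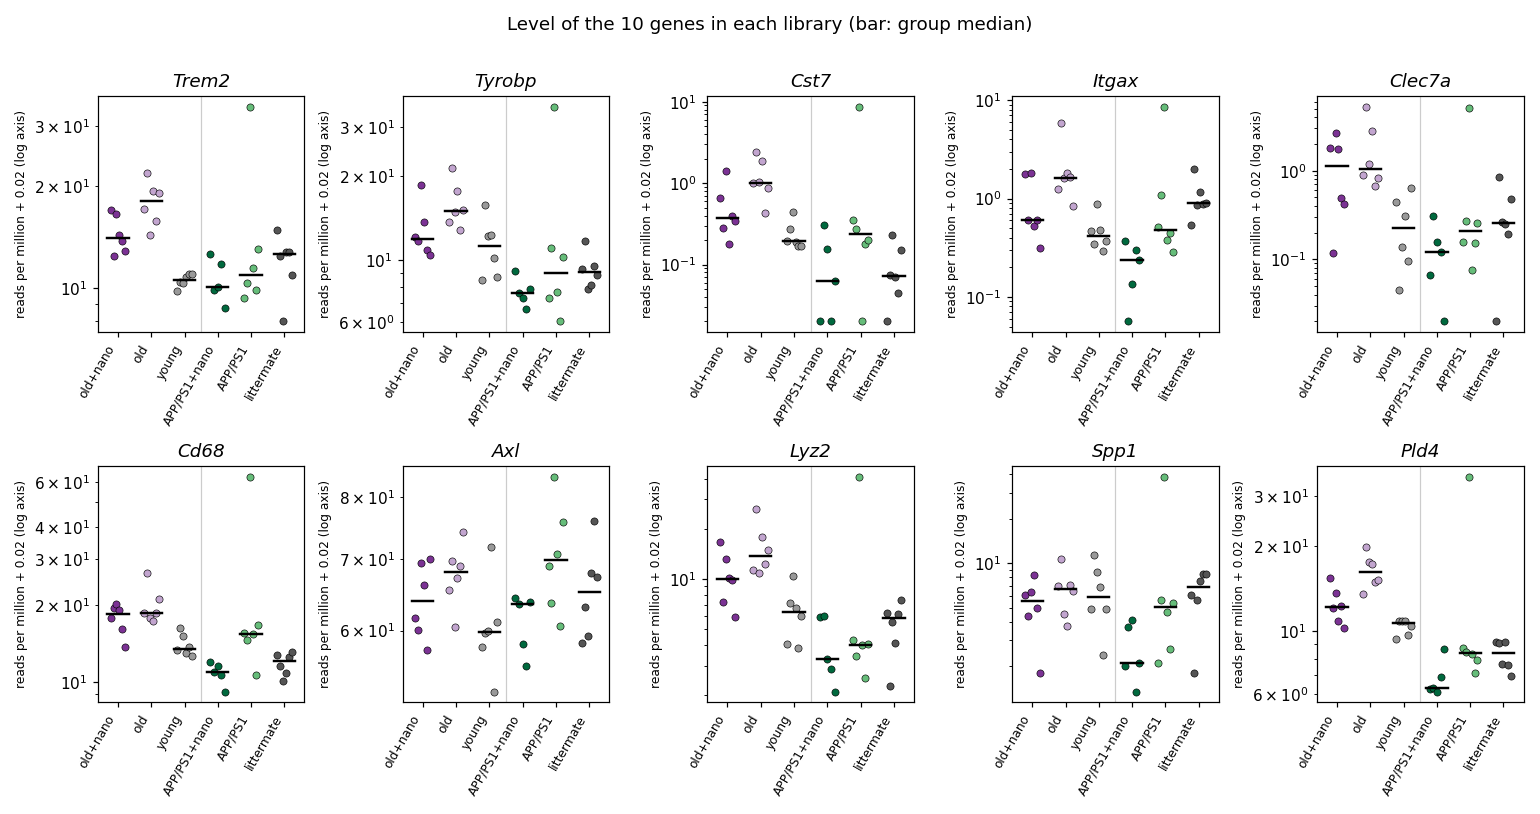
CPM (plus 0.02, log axis) of each gene in each of the 35 libraries, by group, with the group median as a bar. Old libraries sit above young ones for Trem2 and Pld4 without overlap, and 1 APP/PS1 library, female 3, lies far above its group for every gene except Axl, where it exceeds the next APP/PS1 library by less.

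Trem2 and Pld4 were higher in old than in young hippocampus, and the other genes of the group had positive differences of 0.11 to 2.85 on the log2 scale. Trem2 had 14.3, 18.1 and 21.9 CPM (lowest, median, highest) in old libraries, against 9.78, 10.6 and 11 in young libraries. Its rise was 1.70-fold (log2 0.76, SE 0.095, limma adjusted p = 0.0100 over all 16626 genes tested), higher in all 6 old libraries than in any young one. Pld4, an exonuclease of single-stranded nucleic acids in endolysosomes, had 13.5, 16.2 and 19.8 CPM in old libraries, against 9.32, 10.6 and 10.9 in young libraries. Its rise was 1.59-fold (log2 0.67, SE 0.092, limma adjusted p = 0.0243), also without overlap. These 2 members are 2 of the 6 genes called in the comparison, or 0.0361% of the genes tested, a share that edgeR gave as well with the same 2 members called. Leaving out 1 library in turn, Trem2 was called in 11 of 12 fits, with an adjusted p of 0.0513 without young female 1, and Pld4 in 2 of 12 fits, with an adjusted p up to 0.107.

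Clec7a and Itgax had larger but more variable differences with age than Trem2 and Pld4. Clec7a, the beta-glucan receptor Dectin-1, had 0.645, 1.03 and 5.19 CPM in old libraries, against 0.0252, 0.205 and 0.624 in young libraries, a difference of 2.85 (SE 0.69) on the log2 scale with a limma adjusted p of 0.343. Itgax, the integrin alpha chain CD11c, had 0.814, 1.61 and 5.83 in old libraries, against 0.276, 0.400 and 0.853 in young libraries, with 1.99 (SE 0.39) and an adjusted p of 0.202. For both genes old female 2 was the highest old library, as it was for every other member except Axl. Axl, a receptor kinase that binds Gas6 on dying cells, had the smallest difference of the receptors, with 67.7 ± 4.58 CPM in old and 60.5 ± 6.33 in young libraries (SD, n = 6 each) and a log2 difference of 0.18 (SE 0.061, adjusted p = 0.654). The adaptor Tyrobp had 12.8, 15 and 21.2 in old libraries, against 8.47, 11.2 and 15.7 in young libraries, and its groups overlapped.

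Among lysosomal and secreted products, Cst7 (cystatin F, an inhibitor of lysosomal cathepsins) had 0.413, 0.995 and 2.42 CPM in old libraries, against 0.150, 0.173 and 0.426 in young libraries. On the log2 scale its difference was 2.28 (SE 0.38, limma adjusted p = 0.0852), the 12th smallest p of all genes. Lyz2, the macrophage lysozyme, had 10.8, 13.6 and 26.1 in old libraries, against 3.81, 6.31 and 10.4 in young libraries, with no overlap and an adjusted p of 0.202. Cd68, a glycoprotein of the lysosomal membrane, had 17.2, 18.5 and 26.6 in old libraries, against 12.6, 13.5 and 16.2 in young libraries, again without overlap and with an adjusted p of 0.202. Spp1, the secreted phosphoprotein osteopontin, averaged 6.56 ± 2.42 CPM in old and 6.49 ± 3.16 in young libraries (SD, n = 6 each), a log2 difference of 0.11 (SE 0.31, adjusted p = 0.967).

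Counted together, 5 of the 10 genes (Trem2, Clec7a, Cd68, Lyz2 and Pld4) had every old library above every young one, against 0.403% of all genes tested. For Clec7a this rests on scaling by depth, since the lowest old and the highest young library held 25 reads each (0.645 and 0.624 CPM). At an unadjusted p under 0.05, 9 of the 10 were higher in old mice, against 3.37% of all genes. The median log2 difference was 0.72 over the 10 genes, against -0.0039 over all genes tested. DESeq2 on the recovered reads called 7 of the 10 higher, against 0.74% of all genes, and the 5 genes it added to the limma calls were Cst7, Itgax, Clec7a, Cd68 and Lyz2. Tyrobp, Axl and Spp1 were called by none of the 3 tools.

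Lists of related and myeloid genes were also mostly higher in old mice, and none of their members was called. Of 29 further genes of the disease-associated state that were tested, 22 were higher in old mice, with a median of 0.12, and the smallest p-values belonged to B2m (log2 0.74, SE 0.16, limma adjusted p = 0.240), the light chain of class I molecules, and Ctsz (0.33, SE 0.091, adjusted p = 0.447), a lysosomal cathepsin. Of 18 tested genes of the TREM family and its signalling, 15 were higher, with a median of 0.28, led by the phosphatase Ptpn6 at 0.46 (SE 0.12, adjusted p = 0.347) and the ITAM adaptor Fcer1g at 0.53 (SE 0.14, adjusted p = 0.401). All 15 homeostatic microglia markers were positive as well, with a median of 0.27, among them Olfml3 at 0.36 (SE 0.090, limma adjusted p = 0.346). The 10 pan-myeloid markers came close to the 10 genes, with 10 of 10 positive, 9 of 10 at an unadjusted p under 0.05 and a median of 0.59, and the 7 tested markers of monocytes and neutrophils were all positive with a median of 0.73. Summed over the pan-myeloid markers, levels were 385 to 612 CPM in old and 288 to 326 in young libraries.

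**Figure D2:**
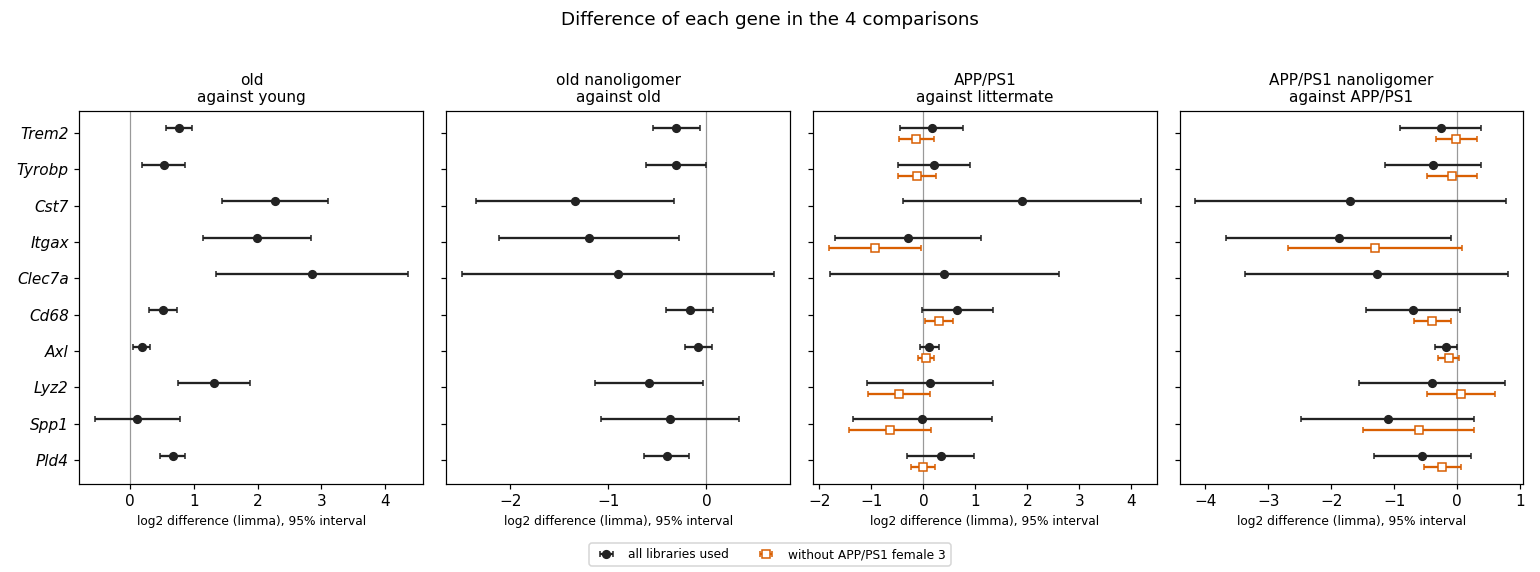
Log2 difference of each gene in each comparison from limma, with 95% intervals, and open squares for the fits without APP/PS1 female 3. Age differences are positive for all 10 genes, those of both treatments are negative for all 10 genes when all libraries used enter, and in treated APP/PS1 mice the squares lie closer to 0 for all 8 genes that could be tested without that library.

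The level of each gene relative to microglia was taken as its log2 CPM plus 0.1 minus the mean of the 15 homeostatic markers in the same library. In bulk tissue, fewer cells of a type and less RNA per cell cannot be told apart. Relative to these markers Trem2 stood at -0.54 ± 0.16 in old and -1.05 ± 0.11 in young libraries (SD, n = 6 each), a difference of 0.50 (two-sided exact permutation within sex, p = 0.005, the smallest the design allows). Pld4 stood at -0.67 ± 0.11 in old and -1.08 ± 0.13 in young libraries, a difference of 0.41 (exact permutation p = 0.005). Cst7 differed by 1.71 and Itgax by 1.57 (exact permutation p = 0.005 each), and Clec7a, Lyz2 and Cd68 by 2.12, 1.05 and 0.26 (exact permutation p = 0.01 each). The differences of Tyrobp, at 0.27, Axl, at -0.075, and Spp1, at -0.15, had exact permutation p-values of 0.12, 0.5 and 0.68. These are unadjusted p-values from 40 such tests, 10 genes in each of 4 comparisons. An unadjusted exact permutation p under 0.05 was thus reached by 7 of the 10 genes with age. With the 10 pan-myeloid markers in place of the homeostatic ones it was reached by 6. In the limma fit across all genes with the marker mean as a covariate, the age difference of Trem2 was 0.52 (SE 0.15, adjusted p = 0.989) and none of the 10 genes was called.

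Averages of markers of other cells also differed between old and young libraries. The summed levels of each list given here overlapped, and none of its genes was called. All 12 choroid plexus genes were negative, with a median of -1.92 and summed levels of 24.6 to 261 CPM in old and 15.1 to 4245 in young libraries, and 0 of the 12 were called. Border macrophage markers summed to 31.5 to 36.6 in old and 27.3 to 32.4 in young libraries, and those of monocytes and neutrophils to 1.40 to 24.8 in old and 0.627 to 23.1 in young libraries. Markers outside the myeloid lists were also mostly positive. This held for 8 of 8 hippocampal neuron markers (median 0.29) and 8 of 8 markers of myelinating oligodendrocytes (median 0.19). Positive too were 5 of 5 blood markers (median 0.21) and 7 of 8 astrocyte markers (median 0.07). Of 12 fibroblast markers 6 were positive, and of all genes tested 48.6%. The part of these cells in the age differences was not tested.

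This comparison and the one of age share the old libraries. In nanoligomer-treated old mice all 10 genes were lower on average than in untreated old mice, and none of the 10 passed the test over all genes. Trem2 had 12.4, 14 and 17.0 CPM in old nanoligomer libraries, against 14.3, 18.1 and 21.9 in old libraries, and the groups overlapped. Its log2 difference was -0.31 (SE 0.11, limma adjusted p = 0.678). Pld4 had 10.2, 12.1 and 15.4 in old nanoligomer libraries, against 13.5, 16.2 and 19.8 in old libraries, with -0.41 (SE 0.11, adjusted p = 0.678) and the 22nd smallest p of 16517 genes. Tyrobp had 10.4, 11.9 and 18.6 in old nanoligomer libraries, against 12.8, 15 and 21.2 in old libraries, and a log2 difference of -0.31 (SE 0.14, adjusted p = 0.678).

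The genes with few reads had the widest gaps and the widest intervals after treatment. Cst7 had 0.159, 0.351 and 1.39 CPM in old nanoligomer libraries, against 0.413, 0.995 and 2.42 in old libraries, a log2 difference of -1.34 with 95% limits of -2.35 and -0.33. For Itgax the values were 0.298, 0.583 and 1.79 in old nanoligomer libraries, against 0.814, 1.61 and 5.83 in old libraries, a log2 difference of -1.20 with limits of -2.12 and -0.28. Clec7a, at 0.0973, 1.09 and 2.63 in old nanoligomer libraries against 0.645, 1.03 and 5.19 in old libraries, spread over the whole range of both groups. Lyz2 had 5.86, 9.99 and 16.6 in old nanoligomer libraries, against 10.8, 13.6 and 26.1 in old libraries, with a log2 difference of -0.58 and limits of -1.13 and -0.03. Cd68, Axl and Spp1 differed by -0.17, -0.083 and -0.37, and their limits included 0.

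No member was called in treated against untreated old mice by limma or edgeR, each of which called 0% of all genes (1192 and 1185 genes at an unadjusted p under 0.05), or by DESeq2, which called 0.0121%. At an unadjusted p under 0.05, 6 of the 10 were lower (Trem2, Tyrobp, Cst7, Itgax, Lyz2 and Pld4), against 3.6% of all genes, and none of the 10 had all treated libraries below all untreated ones, against 0.133% of all genes. The median log2 difference was -0.39 over the 10 genes, against -0.0034 over all genes tested. Homeostatic markers did not share the sign, with 9 of 15 positive and a median of 0.03, and of these Gpr34 had 0.40 (SE 0.18) and Olfml3 -0.24 (SE 0.11), each with a limma adjusted p of 0.678. Of the further genes of the state 21 of 29 were negative, with the growth factor Csf1 at -0.38 (SE 0.15) and Lgals3bp at -0.63 (SE 0.26), and of the TREM signalling genes 16 of 18 were negative, with the phospholipase Plcg2 at -0.58 (SE 0.16) and Spi1, which encodes PU.1, at -0.23 (SE 0.12). None of these 4 was called.

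Relative to the homeostatic markers, Pld4 stood at -1.08 ± 0.20 in old nanoligomer and -0.67 ± 0.11 in old libraries (SD, n = 6 each), a difference of -0.41 (exact permutation p = 0.005, the smallest possible). Trem2, Tyrobp, Cst7 and Itgax differed by -0.31, -0.31, -1.19 and -1.11, with unadjusted exact permutation p-values of 0.03, 0.045, 0.04 and 0.045. Without old female 2, or without old nanoligomer female 2, 1 of the 10 genes had a p under 0.05. With the pan-myeloid markers as reference 3 of the 10 had one, against 5 with the homeostatic markers. Other myeloid lists also had lower averages in the treated libraries, with 9 of 10 pan-myeloid markers negative (median -0.16, 4 at an unadjusted p under 0.05) and 8 of 11 border macrophage markers negative (median -0.46). Fibroblast markers had lower averages too, 12 of 12 negative with a median of -0.43, and summed to 81.1 to 185 CPM in old nanoligomer and 164 to 193 in old libraries. All 8 markers of hippocampal neurons were also negative, with a median of -0.57 and sums of 266 to 805 in old nanoligomer and 253 to 877 in old libraries. Their part in the differences was not tested.

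For the genes behind the proteins that the series title names, the ranges of both groups overlapped. Nfkb1 had 15 to 21.3 CPM in old nanoligomer and 19.0 to 23.1 in old libraries, and Nlrp3 had 0.957 to 2.45 in old nanoligomer and 0.543 to 2.28 in old libraries. Transcript levels do not show the amount of either protein.

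**Figure D3:**
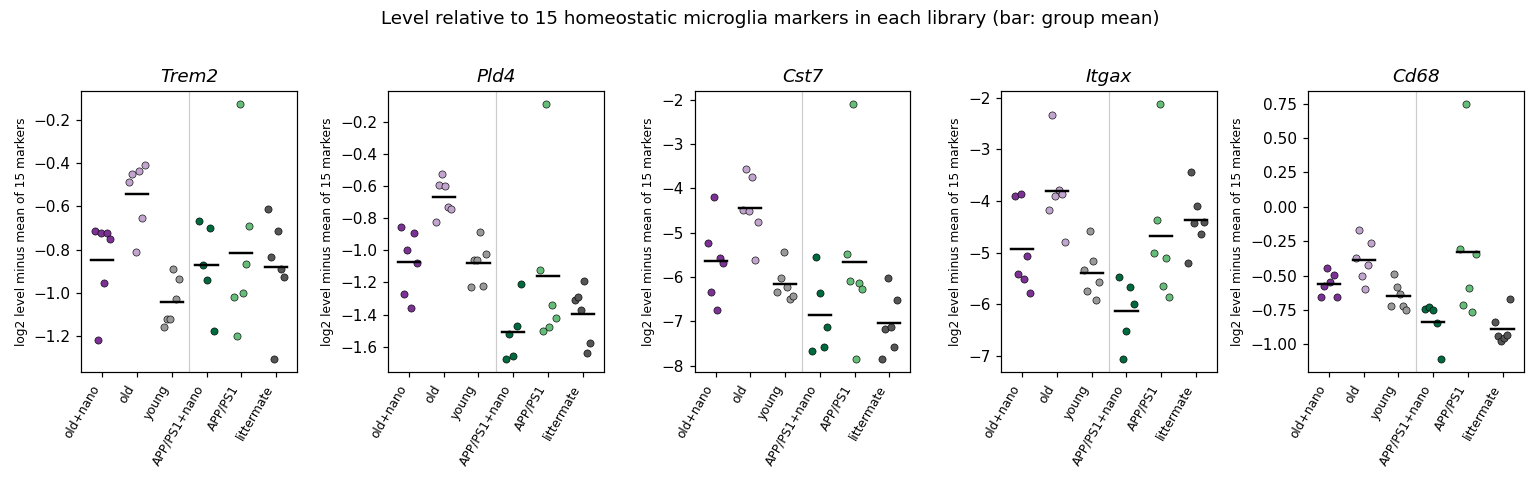
Log2 level of Trem2, Pld4, Cst7, Itgax and Cd68 relative to the mean of 15 homeostatic microglia markers in each of the 35 libraries, with group means as bars. Old libraries lie above young ones on average for each of the 5 genes, and the mean of the old nanoligomer libraries lies between both for Trem2, Cst7, Itgax and Cd68.

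Between APP/PS1 mice and littermates at 4 months none of the 10 genes was called, and female 3 of the APP/PS1 group decided the sign of several. Trem2 had 9.35, 10.3, 11.5, 9.90 and 13.1 CPM in 5 APP/PS1 libraries and 34.2 in female 3, against 7.97, 12.6 and 14.9 (lowest, median, highest) in littermates. Its log2 difference was 0.16 (SE 0.28, limma adjusted p = 0.896) with female 3 and -0.13 (SE 0.15, adjusted p = 0.761) without it. Cst7 had 8.60 CPM in female 3 and 0 to 0.331 in the other 5 APP/PS1 libraries, against 0 to 0.209 in littermates. With female 3, 8 of the 10 had positive differences with a median of 0.18. Without it, Cst7 and Clec7a no longer reached the mean of 10 normalized counts, and 6 of the 8 that did were negative, with a median of -0.13.

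Cd68 and Itgax stood out from the other genes among the 5 remaining APP/PS1 libraries, in opposite directions and without passing the test. Cd68 had 15.5, 14.6, 15.4, 10.6 and 16.6 CPM in those libraries, against 10.1, 12 and 13.1 in littermates, so that 4 of 5 lay above every littermate. Its log2 difference was 0.30 (SE 0.12, limma adjusted p = 0.288). Relative to homeostatic markers, Cd68 differed by 0.35 without female 3 and by 0.56 with it (unadjusted exact permutation p = 0.01 each). Itgax had 0.496, 1.06, 0.363, 0.430 and 0.267 in the same libraries, against 0.519, 0.873 and 1.96 in littermates, a log2 difference of -0.93 (SE 0.41, limma adjusted p = 0.336). Both were picked out after their values were seen.

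Calls over all genes in this comparison made up 0.0486% by limma and by edgeR, 1.54% by DESeq2, and 1.56% by limma without female 3, and no member was among them in any of these fits. No member had all 6 APP/PS1 libraries above all littermates, against 0.437% of all genes tested. Of the further genes of the state, the cathepsin Ctsb had 0.28 (SE 0.088, adjusted p = 0.289) and the lipase Lpl -0.59 (SE 0.19, adjusted p = 0.304), with 15 of 29 positive. Without female 3, Lpl fell (log2 -0.75, SE 0.15, limma adjusted p = 0.0284), Ctsb had 0.20 (adjusted p = 0.120), and 9 of the 29 were positive, with a median of -0.11. Among TREM signalling genes, Pik3r5 had 0.71 (SE 0.21, adjusted p = 0.267) and Lat2 0.46 (SE 0.17, adjusted p = 0.380), with 12 of 18 positive and a median of 0.07. Without female 3, Pik3r5 had 0.52 and Lat2 0.43, and 6 of the 18 were positive, with a median of -0.17. Of the homeostatic markers, P2ry13 had 0.39 (SE 0.17, adjusted p = 0.468) and P2ry12 0.25 (SE 0.14, adjusted p = 0.574), with 11 of 15 positive and a median of 0.13. Without female 3, P2ry13 had 0.24 and P2ry12 0.13, and 7 of the 15 were positive, with a median of -0.04.

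Averages of markers of cells outside the microglia also differed between these groups, and none of the markers was called with female 3 included. All 12 fibroblast markers were negative, with a median of -0.88 and sums of 108 to 215 CPM in APP/PS1 and 157 to 361 in littermate libraries. All 12 choroid plexus markers were negative too, with a median of -1.35 and median sums of 40.8 in APP/PS1 and 125 in littermate libraries. Of 8 markers of hippocampal neurons 7 were negative, with median sums of 614 in APP/PS1 and 726 in littermate libraries. Pan-myeloid markers summed to 250 to 277 in the APP/PS1 libraries other than female 3 and to 239 to 311 in littermates. Without female 3 the same counts were negative in the lists of fibroblasts, choroid plexus and hippocampal neurons, with medians of -1.06, -1.41 and -1.14. Of 8 astrocyte markers 5 were negative in that fit, with a median of -0.04. Called lower in it were 2 astrocyte markers, 1 fibroblast marker and 1 hippocampal neuron marker, against 127 of all 16433 genes tested. The part of these cells in the differences was not tested.

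Female 3 of the APP/PS1 group had the highest level of 9 of the 10 genes among all 35 libraries, and for Clec7a, at 5.05 CPM, was second to old female 2, at 5.19. Against the median of the other 5 APP/PS1 libraries its level was 3.31-fold for Trem2, 4.61-fold for Tyrobp, 4.08-fold for Cd68, 4.25-fold for Pld4, 8.17-fold for Spp1 and 10.3-fold for Lyz2. For the genes of few reads the ratios were 19.8-fold for Itgax, 36.6-fold for Clec7a and 48.4-fold for Cst7, and Axl was 1.21-fold. Of the 8 members with a mean of at least 1 CPM, 7 exceeded the highest of the other 5 libraries more than 2-fold, as did 1.6% of the 14784 genes with such a mean. Its levels also passed those of old mice, by 1.89-fold over the old median for Trem2 and 8.64-fold for Cst7.

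In the same library all 15 homeostatic markers and all 10 pan-myeloid markers lay above every other APP/PS1 library. Homeostatic markers summed to 888 CPM in female 3 and 407 to 513 in the other 5, and pan-myeloid markers to 945 in female 3 and 250 to 277 in the other 5. Of 11 border macrophage markers 6 were above the other 5 libraries, with a sum of 73.7 in female 3 and 25.9 to 30.1 in the others. Of 11 markers of monocytes and neutrophils, 9 were at 0 in female 3 and 2 were above the other 5 libraries. Their sum was 2.71 CPM in female 3 and 0.276 to 2.01 in the others. Above the other 5 libraries were also 5 of 8 astrocyte markers, 6 of 12 fibroblast markers and 4 of 8 hippocampal neuron markers. This held for 1 of 12 choroid plexus markers and 0 of 8 markers of myelinating oligodendrocytes. The share of all genes with female 3 above the other 5 libraries was not computed. Among the astrocyte markers, the filament gene Gfap had 2095 CPM in female 3 and 186 to 344 in the others. App, at 3486, lay within the range of its group. What set this library apart was not tested.

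**Figure D4:**
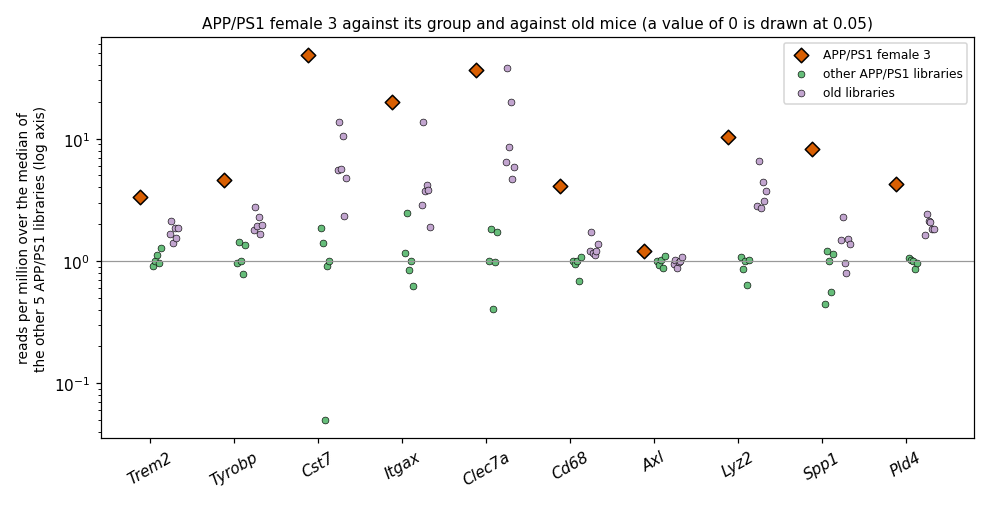
CPM of each gene divided by the median of the other 5 APP/PS1 libraries (log axis), for APP/PS1 female 3 (diamonds), the other APP/PS1 libraries and the old libraries. Female 3 lies above every other APP/PS1 library for all 10 genes and above all old libraries for all but Clec7a.

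The last comparison shares the APP/PS1 libraries with the one before it. Treated APP/PS1 mice, with 5 libraries, had lower averages than APP/PS1 mice for all 10 genes, and none was called. Without APP/PS1 female 3, 7 of the 8 genes tested were negative, and Lyz2 turned to 0.06 on the log2 scale, with 4.01 ± 1.80 CPM in APP/PS1 nanoligomer and 3.64 ± 0.69 in APP/PS1 libraries (SD, n = 5 each). Trem2 had 12.6, 9.90, 10.1, 11.8 and 8.74 CPM in APP/PS1 nanoligomer libraries, against 9.35, 10.9 and 34.2 in APP/PS1 libraries (lowest, median, highest). Its log2 difference was -0.26 (SE 0.29, limma adjusted p = 0.997) and -0.02 (SE 0.15, adjusted p = 0.998) without APP/PS1 female 3. Itgax had 0.354, 0.0362, 0.114, 0.282 and 0.217 in APP/PS1 nanoligomer libraries, against 0.267, 0.463 and 8.52 in APP/PS1 libraries, with a log2 difference of -1.88 (SE 0.82, adjusted p = 0.997). It was the only one of the 10 lower at an unadjusted p under 0.05, as were 1.51% of all genes. Without female 3 its difference was -1.30 (SE 0.62, limma adjusted p = 0.991).

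Cd68 had 12, 10.9, 11.5, 10.6 and 9.18 CPM in APP/PS1 nanoligomer libraries, against 15.5, 14.6, 15.4, 10.6 and 16.6 in the APP/PS1 libraries other than female 3. Its log2 difference in those was -0.40 (SE 0.13, limma adjusted p = 0.991), chosen after its value was seen. The median over the 10 genes was -0.63 with female 3, against -0.0022 over all genes, and -0.19 over the 8 genes tested without it, against -0.0053 over all genes. Limma and edgeR called 0% of genes (477 and 471 at an unadjusted p under 0.05), limma without female 3 also called 0%, and DESeq2 called 0.0434% with no member among them. No member had all treated libraries below all untreated ones, against 0.155% of all genes.

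Genes of the related lists were not called in treated APP/PS1 mice either. The TREM signalling genes were negative in 17 of 18 cases, with the adaptor Lat2 at -0.81 (SE 0.23, limma adjusted p = 0.997) and Treml2 at -1.02 (SE 0.62, adjusted p = 0.997), and all 15 homeostatic markers were negative, with P2ry13 at -0.47 (SE 0.19, adjusted p = 0.997) and Olfml3 at -0.28 (SE 0.14, adjusted p = 0.997). Of the further genes of the state 17 of 29 were negative, with Ctsl at -0.18 (SE 0.12) and Igf1 at 0.30 (SE 0.20), each with an adjusted p of 0.997. Without APP/PS1 female 3, 12 of the 18 TREM signalling genes were negative (median -0.05, against -0.24 with it), as were 12 of the 15 homeostatic markers (median -0.06, against -0.24 with it) and 13 of 27 further genes of the state, while Lat2 had -0.79, Treml2 -0.78, P2ry13 -0.34 and Olfml3 -0.27. Choroid plexus genes had higher averages in the treated libraries, 12 of 12 positive with a median of 2.72 with that library and 2.66 without it, and their sum had a median of 295 and a highest value of 4104 CPM in APP/PS1 nanoligomer libraries, against 40.8 and 95.9 in APP/PS1 libraries. Their part in the differences was not tested.

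Effects of age and of the transgenes, which share no library, were compared in a joint fit. The age effect minus the transgene effect was 0.61 for Trem2 (95% limits -0.05 and 1.26, limma adjusted p = 0.453), 0.33 for Pld4 (limits -0.36 and 1.03, adjusted p = 0.710) and 2.29 for Itgax (limits 0.64 and 3.94, adjusted p = 0.300), and no member was called, against 0.0422% of all genes. APP/PS1 female 3 was set aside after its high values of these same genes were seen, so a fit without it is no independent test of them. In that fit 3 of the 10 were called, against 0.121% of all genes. These were Itgax at 2.93 (SE 0.57, adjusted p = 0.0452), Pld4 at 0.67 (SE 0.13, adjusted p = 0.0489) and Trem2 at 0.90 (SE 0.18, adjusted p = 0.0498), with a larger effect of age than of the transgenes in each. Age spanned 8 to 18 months in one arm, while the transgenic arm was measured at 4 months, so the 2 effects differ in more than their cause.

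The treatment effect in APP/PS1 mice minus that in old mice was 0.04 for Trem2, with limits of -0.62 and 0.70, and -0.15 for Pld4, with limits of -0.92 and 0.62. No member was called, nor any gene (0%). No difference of an effect between males and females was called for any member or any gene in the 4 comparisons, and 0 members reached an unadjusted p under 0.05. That p was reached by 4.39% of genes for age, 4.71% for treatment in old mice, 5.1% for the transgenes and 4.52% for treatment in APP/PS1 mice. The interval for Trem2 in the age comparison ran from -0.47 to 0.40, males minus females.

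Ordered by median, Trem2 was highest in old libraries at 18.1 CPM, followed by old nanoligomer at 14, littermate at 12.6, APP/PS1 at 10.9, young at 10.6 and APP/PS1 nanoligomer at 10.1. Each neighbouring pair in that order overlapped in range. The old group had the highest median for 7 of the 10 genes, old nanoligomer for Clec7a, APP/PS1 for Axl and littermate for Spp1. Over all 10 genes, 1 of 50 neighbouring pairs did not overlap, namely Pld4 in young, at 9.32 to 10.9, over littermate, at 6.93 to 9.16 CPM. That pair crosses the arms, whose mice differ in age, and the share of such pairs over all genes was not computed. The lowest median belonged to APP/PS1 nanoligomer libraries for 9 genes and to young libraries for Axl.

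Within groups, the level of Trem2 varied with that of its adaptor. After subtracting each group's mean per sex, in 34 libraries with APP/PS1 female 3 left out, Trem2 correlated with Tyrobp at r = 0.516 and rho = 0.573 (permutation within group and sex, p = 0.00922 and 0.00378, adjusted over 10 relations 0.0307 and 0.0346). The correlation was r = 0.555 without the 2 libraries farthest from the median of Trem2. With Cd68 it was r = 0.572 and rho = 0.545 (permutation p = 0.00610 and 0.0104, adjusted 0.0307 and 0.0346), and r = 0.543 without those 2 libraries. With the mean of the homeostatic markers it was r = 0.495 and rho = 0.520 (permutation p = 0.00908 and 0.00825, adjusted 0.0307 and 0.0346), and r = 0.451 without those 2. For Pld4 r was 0.389 (adjusted permutation p = 0.257) and for Cst7 -0.0795 (adjusted permutation p = 0.758).

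Among the genes outside the 10 whose levels followed Trem2 most closely over the 35 libraries were C1qa, a chain of complement C1q, at r = 0.894, the lysosomal membrane gene Laptm5 at 0.888, the cathepsin Ctss at 0.870 and the adaptor gene Fyb at 0.869. These came out of 13766 genes compared and are given as a description. Within groups and sexes and without APP/PS1 female 3, the same coefficients were 0.671 for C1qa, 0.587 for Laptm5, 0.611 for Ctss and 0.603 for Fyb.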

How the data were processed

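The deposited values are normalized counts, a signal whose steps show read counts divided by 1 factor per library, and each of the 4 tables was normalized separately. The column used as APP/PS1 nanoligomer male 3 differs by 1 letter from that sample's title. Per the labels' protocols, polyadenylated RNA was sequenced. STAR, DESeq2 and the build mm10 are named without a role in the submitters' processing notes, and the counting tool, strand setting and annotation were not stated there. Of the values that the authors deposited, 100% in every library were whole multiples of the value of 1 read within 0.001, so reads and CPM (reads scaled to 1e6 per library) were recovered from them. The 12 libraries present in 2 tables had the same reads in both.

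Log2(normalized count + 1) was tested with limma 3.58.1 (trend, sex as covariate) over genes averaging 10 or more normalized counts, with Benjamini-Hochberg adjustment and a call at an adjusted p under 0.05. Fold changes are on that scale, which understates those of low genes. edgeR 4.0.16 and DESeq2 1.42.0 were run on the recovered reads in R 4.3.3. Only the limma fits were tested on simulated data. Named beside the 10 genes were, per list and comparison, up to 4 called genes or else the 2 of smallest p, and the 5 genes most correlated with Trem2; 1 gene that this rule names is not reported here. The genes and lists were chosen with earlier results of these data known. Gene models are from GENCODE vM21 on GRCm38.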

Additional observations from a re-analysis of the deposited data

Results flagged for a closer look

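In groups of 5 or 6 libraries, 12 of 60 tested had their highest library farther from the rest than Dixon's limit allows, a limit set at 1 in 20 for a single test. Of these, 9 were APP/PS1 female 3, with 34.2 CPM for Trem2, 35.3 for Tyrobp, 8.60 for Cst7, 8.52 for Itgax, 5.05 for Clec7a, 62.7 for Cd68, 40.8 for Lyz2, 38.3 for Spp1 and 35.1 for Pld4. Old female 2 stood apart for Itgax, at 5.83, and young female 3 for Itgax, at 0.853, and for Cst7, at 0.426.

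The age effect exceeded the transgene effect in the joint limma fit without APP/PS1 female 3, a fit chosen after seeing the data, by 0.90 for Trem2, 2.93 for Itgax and 0.67 for Pld4 on the log2 scale. With that library none of the 10 genes was called.

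In the low-depth APP/PS1 nanoligomer female 3, which entered no comparison, Spp1 had 249.6 CPM, against a highest value of 38.3 in the other 35 libraries. In that library 0 reads of a gene allow up to 3.28 CPM. Trem2, Cst7, Itgax, Clec7a, Cd68, Lyz2 and Pld4 had 0 reads there, Tyrobp had 28 and Axl 62. Its monocyte and neutrophil markers summed to 551 CPM, its border macrophage markers to 309 and its dendritic cell markers to 395. Choroid plexus markers summed to 1188 and astrocyte markers to 1025 CPM. Those of myelinating oligodendrocytes summed to 13.1 CPM, against 3357 or more in the other 35 libraries. The part of any of these cells in the Spp1 value was not tested.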

How the results depend on the processing

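Counts of calls with age were 6 genes and 2 members by limma, 123 genes and 7 members by DESeq2, and 1 gene and 0 members with the homeostatic marker mean as a covariate. With the replicate number as a block they were 1 gene and 0 members with age, and the block changed no other call of a member. It gave 0 genes in old nanoligomer against old, 10 in APP/PS1 against littermate and 0 in APP/PS1 nanoligomer against APP/PS1, and 0 members in each of these. In the age comparison same-numbered libraries deviated together with r of -0.325 to 0.328, over 0.1 in 1 of 6 pairs. There 2 of 6 libraries correlated best with their own number. This held for 1 of 6 in old nanoligomer against old and 4 of 6 in APP/PS1 against littermate. In APP/PS1 nanoligomer against APP/PS1 it held for 3 of 5, with r of 0.018 to 0.142. Whether same-numbered libraries share a batch was not tested. Leaving out each library in turn gave 4 to 11 genes and 0 to 2 members with age, 6 to 256 genes for APP/PS1 against littermate, and 10 to 15 of the 40 relative levels at an unadjusted p under 0.05, against 14 with all. With the pan-myeloid markers as reference 12 of the 40 relative levels reached that p.

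DESeq2 called 2 genes in old nanoligomer against old, 253 in APP/PS1 against littermate and 7 in APP/PS1 nanoligomer against APP/PS1, where no filter on low values gave 1. In APP/PS1 against littermate the marker covariate gave 72 genes. Without APP/PS1 female 3, alternatives added after seeing the data gave 289 genes with TMM scaling, 260 with edgeR and 803 with DESeq2 in that comparison, and 5 with DESeq2 in treated APP/PS1 mice. The joint age minus transgene fit without it called 3 members.

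Signs turned in APP/PS1 against littermate. Without female 3, TMM scaling, edgeR and DESeq2 gave -0.13, -0.15 and -0.15 for Trem2, -0.12, -0.10 and -0.098 for Tyrobp, -0.43, -0.53 and -0.53 for Lyz2, and -0.0079, -0.014 and -0.012 for Pld4. With the marker covariate Trem2 had -0.014 and Lyz2 -0.17. With female 3, edgeR and DESeq2 gave 0.18 and 0.12 for Itgax and 0.43 and 0.42 for Spp1. In APP/PS1 nanoligomer against APP/PS1, the marker covariate gave 0.11 for Trem2, 0.095 for Tyrobp and 0.23 for Lyz2, the replicate block gave 0.060 for Lyz2, and the fits without female 3 gave 0.065, 0.061 and 0.070 for Lyz2. In the joint treatment fit Cst7 had 0.12 with a pseudocount of 8. The cause of these turns was not tested.

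Over the fits that left out 1 library, log2 differences ran from -0.097 to 0.28 for Spp1 with age. For APP/PS1 against littermate they ran from -0.13 to 0.30 for Trem2, -0.12 to 0.40 for Tyrobp, -0.36 to 0.75 for Clec7a, -0.47 to 0.32 for Lyz2, -0.64 to 0.30 for Spp1 and -0.0055 to 0.46 for Pld4. For Lyz2 in APP/PS1 nanoligomer against APP/PS1 they ran from -0.64 to 0.060. In the joint fits without female 3, the age minus transgene difference was 0.22 for Cd68, and the difference of treatments was 0.22 for Tyrobp, 0.39 for Cst7, 0.27 for Clec7a and 0.17 for Pld4. Depth limits Cst7, Clec7a and Itgax most, since several libraries hold under 10 reads of each.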
